A study of Mus musculus with 2 samples.

Results

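The genes described here are the 4 members of the Fos family (Fos, Fosb, Fosl1 and Fosl2), the 3 of the Jun family (Jun, Junb and Jund), and Atf3, Egr1 and Srf. They were chosen by name, as the AP-1 and immediate-early transcription factors, and all 10 were found among the 14886 protein-coding genes counted. The counts come from ribosome profiling, which sequences mRNA fragments shielded by ribosomes, in mouse lung fibroblasts. There was 1 library labelled IR and 1 labelled NC, and these serve as the groups. The labels give no genotype, strain, age, dose or time, do not spell out IR or NC, and do not say whether cells of several animals were pooled. The series title concerns radiation-induced pulmonary fibrosis, rosmarinic acid and exosomes, and the design text uses ribosome profiling to look for target mRNAs. Cells of both libraries were treated with cycloheximide, a translation blocker that is itself known to raise the mRNAs of immediate-early genes. The length of that treatment is not given, and its part in these counts was not tested.

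AP-1 is a dimer of leucine zipper proteins that binds the short DNA site TGACTCA. Fos proteins bind DNA only with a partner, usually a Jun protein, whereas Jun proteins can also pair with each other. Fos, Junb, Egr1 and Atf3 are immediate-early genes: serum, growth factors, stress and radiation switch them on within minutes through MAP kinases, with no need for newly made protein, and their mRNAs are short-lived. Srf, the serum response factor, binds CArG boxes and drives both immediate-early genes and the actin and smooth muscle genes of myofibroblasts, the cells that contract and lay down matrix in fibrosis.

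The promoters of 8 of the 10 genes were matched by symbol in a RefSeq table (GRCm38.p6, 32851 windows of 250 bases before to 50 bases after a gene start). Fosl1 and Egr1 are named only. Shown are those of Fos and Srf, whose footprints differed between the libraries, and of Jun and Junb, the most heavily counted Jun genes. The strand printed is that of the gene. Capitals mark matches to the motifs given after them.
Fos: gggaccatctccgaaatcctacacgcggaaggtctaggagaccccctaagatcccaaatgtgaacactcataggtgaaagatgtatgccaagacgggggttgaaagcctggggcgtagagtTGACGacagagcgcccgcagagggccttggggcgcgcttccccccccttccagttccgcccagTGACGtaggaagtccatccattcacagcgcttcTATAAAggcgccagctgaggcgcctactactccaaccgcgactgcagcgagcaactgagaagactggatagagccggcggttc
Jun: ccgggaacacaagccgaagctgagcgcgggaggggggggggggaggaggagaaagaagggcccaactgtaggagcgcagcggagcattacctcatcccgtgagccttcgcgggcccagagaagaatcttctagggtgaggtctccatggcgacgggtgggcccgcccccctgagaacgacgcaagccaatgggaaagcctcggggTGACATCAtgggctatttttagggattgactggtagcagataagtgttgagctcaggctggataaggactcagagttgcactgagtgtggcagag
Junb: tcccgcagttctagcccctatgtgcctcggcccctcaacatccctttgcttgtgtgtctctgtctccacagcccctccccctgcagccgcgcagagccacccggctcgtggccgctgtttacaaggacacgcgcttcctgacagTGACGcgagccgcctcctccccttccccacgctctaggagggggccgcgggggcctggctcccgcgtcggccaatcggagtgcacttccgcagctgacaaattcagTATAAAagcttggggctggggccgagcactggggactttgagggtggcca
Srf: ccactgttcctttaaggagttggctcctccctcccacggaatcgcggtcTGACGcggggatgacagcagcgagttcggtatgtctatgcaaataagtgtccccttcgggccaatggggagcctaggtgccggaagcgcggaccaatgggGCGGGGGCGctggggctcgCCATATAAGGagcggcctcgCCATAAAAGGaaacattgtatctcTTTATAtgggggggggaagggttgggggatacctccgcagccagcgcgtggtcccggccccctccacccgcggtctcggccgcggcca
These windows lie at chr12:85473640-85473939 on the plus strand for Fos, and on the minus strand at chr4:95052173-95052472 for Jun, chr8:84978699-84978998 for Junb and chr17:46556113-46556412 for Srf.

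Both strands were searched, and positions count from the gene start. The Srf window held 2 CArG boxes, the sites its own protein binds, at -82 to -73 and -62 to -53. No other of the 8 windows held one. Bases outside the windows were not searched. A CArG box farther from the gene start, in Fos or another gene, would be missed. CArG boxes occur in 1.63% of all windows of this length. Jun held TGACATCA, a variant AP-1 site, at -45 to -38, a match found in 3.62% of windows. The plain AP-1 site TGACTCA, which reads TGAGTCA on the opposite strand and is present in 5.2% of windows, was in none of the 8. Neither was the full cyclic AMP response element TGACGTCA (1.79%), nor the Egr site GCGTGGGCG (0.612%). The other Egr site searched, GCGGGGGCG, was in the windows of Fosb, Fosl2 and Srf and in 2.91% of all windows. The TATA box TATAAA stood at -33 to -28 in Fos and at 1 to 6 in Junb, just inside the annotated start, and Srf held it on the other strand. TATAAA is present in 13.6% of windows. The core TGACG of the cyclic AMP response element was added after the sequences were seen. It was in 5 of the 8 windows (Fos, Fosb, Junb, Atf3 and Srf) and in 20.8% of all windows. Jund held no match. GC content was 58.7% in Fos, 60.0% in Jun, 65.3% in Junb, 63.3% in Srf and 46.7% in Jund, against a median of 52.7% over all windows. A match describes the letters only and shows no binding.

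**Figure D1:**
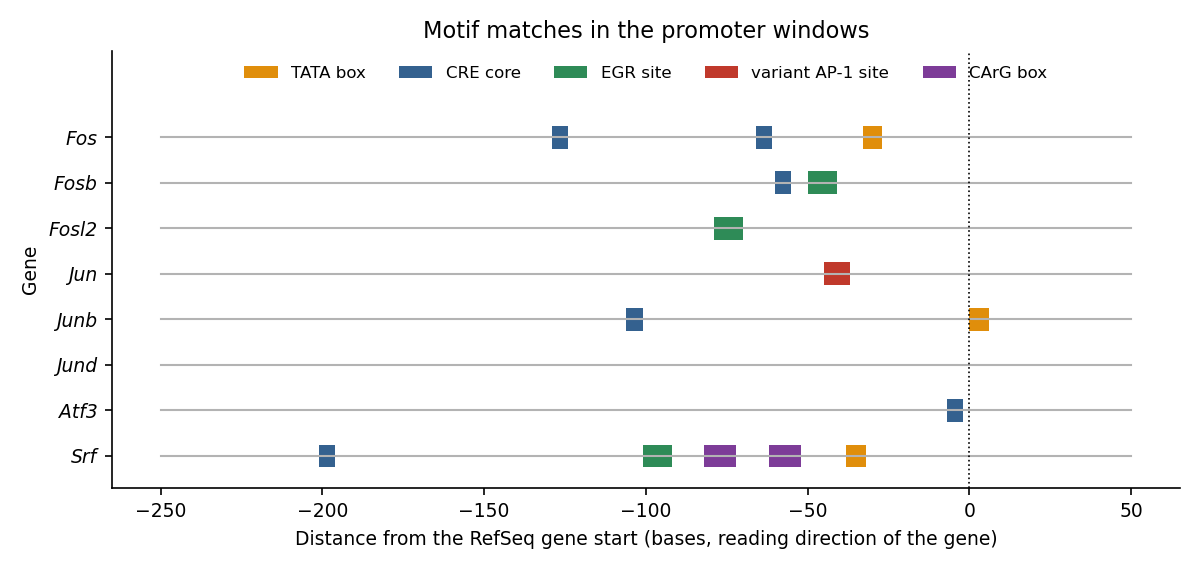
Motif matches in the promoter windows of 8 genes, drawn to scale; the horizontal axis is the distance in bases from the RefSeq gene start (dotted line), each row is a gene and each coloured block a match on either strand. Srf carries 2 CArG boxes, Jun the variant AP-1 site, and Jund no match.

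The libraries held 888835 counts in IR and 695446 in NC, with a median of 12 counts per gene in each, so single genes were measured with limited precision. When the 2 libraries are averaged, at least 20 counts were reached by 5989 genes and by 7 of the 10 genes described; Fosb, Jund and Atf3 fell short and enter no count of genes that differed, though their reads are part of the family sums and shares. Counts were scaled with TMM factors, which assume that most genes do not differ. Each fold is IR over NC with an exact 95% interval that covers counting error only. There were no replicates and so no test between the conditions, and every difference is one between these 2 libraries. The fibroblast label fits its markers, of which 11 of 12 reached that mean, among them Col1a1 (3455 counts in IR and 3124 in NC). Markers of each other cell type gave fewer reads in all than fibroblast markers, and their unscaled sums were higher in IR. The unscaled sum of the fibroblast markers was higher in IR too, with 11209 reads against 8625 in NC. Mesothelial markers gave 482 reads in all in IR against 104 in NC, and leukocyte and macrophage markers 237 in IR against 164 in NC. Most of the leukocyte reads came from Cd3e, with 178 in IR against 157 in NC, and the next, Cd14, gave 27 in IR against 0 in NC. Endothelial markers gave 91 in IR against 44 in NC, and epithelial markers 20 in IR against 6 in NC. Of their defining genes, Wt1 gave 417 reads in IR against 77 in NC, Ptprc 8 in IR against 0 in NC, Cdh5 1 in IR against 0 in NC, and Epcam 0 in IR against 1 in NC. Heat shock genes, which handling of cells can raise, gave 617 in IR against 532 in NC. Of the 6 with enough counts, 1 was higher beyond counting error, where 23.5% of all genes were. The part of these other cells or of handling in the results below was not tested. Fewer cells of a type, less RNA per cell and less translation of each mRNA cannot be told apart in such data. Both libraries are of footprints, and no library of total mRNA stands beside them.

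Within the Fos family, Fosl1 and Fos were higher in IR beyond counting error, and Fosl2 and Fosb were not. Fosl1 encodes Fra-1, a Fos protein that lacks the strong activation domain of Fos and is itself a target of AP-1. It maps to chromosome 19 (5447703 to 5455945 in mm10). It gave 33 reads in IR against 7 in NC, an IR/NC fold of 4.66 (2.03 to 12.5). Of the 5989 genes, 2.14% had a higher log2 ratio. Its mean of exactly 20 counts meets the minimum only through the IR library, so its presence among the counted genes is not independent of its difference.

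Fos, the founding member, maps to chromosome 12 (85473890 to 85477273), downstream of the promoter printed above. It gave 111 reads in IR against 78 in NC, an IR/NC fold of 1.41 (1.04 to 1.9), and 25.9% of genes had a higher ratio. The difference exceeds counting error by little. Its log2 ratio was 0.49 with TMM scaling and 0.15 with scaling by total counts, where it no longer lay beyond counting error. Fosl2, which encodes Fra-2, maps to chromosome 5 (32136472 to 32157831). It gave 34 reads in IR against 31 in NC, an IR/NC fold of 1.08 (0.646 to 1.82). At this depth any fold within that interval, in either direction, fits the counts. Fosb, on chromosome 7 (19302721 to 19310045), gave 6 reads in IR against 9 in NC, with an interval of 0.193 to 2.07 that leaves its direction unsettled.

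The Jun genes each gave fewer counts in IR, none beyond counting error with TMM scaling. Junb encodes the Jun protein typically induced early, and a weaker activator than Jun. It maps to chromosome 8 (84976909 to 84978748). It gave 263 reads in IR against 295 in NC, the most of the 10 genes, and a fold of 0.881 (0.743 to 1.04). Jun, on chromosome 4 (95049034 to 95052222), encodes the substrate of the JNK kinases. It gave 79 reads in IR against 99 in NC, an IR/NC fold of 0.788 (0.579 to 1.07). Both were lower in IR beyond counting error when scaled by total counts, with log2 ratios of -0.52 for Junb and -0.67 for Jun. Jund, the Jun gene that most cells express steadily, maps to chromosome 8 (70697739 to 70700616) and gave 11 reads in IR against 17 in NC, an IR/NC fold of 0.639 (0.271 to 1.45). The Jun proteins share stretches of sequence, and how reads with several matches were assigned is not given in the sources used here. None of the 10 genes overlaps another gene of the counted set.

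Egr1 and Srf were lower in IR. Egr1 encodes an immediate-early zinc finger factor known to act in fibrotic responses of fibroblasts. It maps to chromosome 18 (34859823 to 34864984). It gave 86 reads in IR against 170 in NC, an IR/NC fold of 0.50 (0.381 to 0.652), and 11.5% of genes had a lower ratio. Srf, on chromosome 17 (46546839 to 46556162), gave 17 reads in IR against 33 in NC, an IR/NC fold of 0.509 (0.266 to 0.940), and 12.7% of genes had a lower ratio. The upper bound for Srf lies close to 1, and it meets the minimum mean only through the NC library, so its presence among the counted genes is likewise not independent of its difference. Egr1 sits at the 2-fold line itself, so that small changes of scaling put it on either side. Atf3, a stress-induced factor that pairs with Jun proteins and can repress, maps to chromosome 1 (191170296 to 191183340). It gave 16 reads in IR against 22 in NC, an IR/NC fold of 0.718 (0.353 to 1.43), with a mean of 19 counts just under the minimum.

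**Figure D2:**
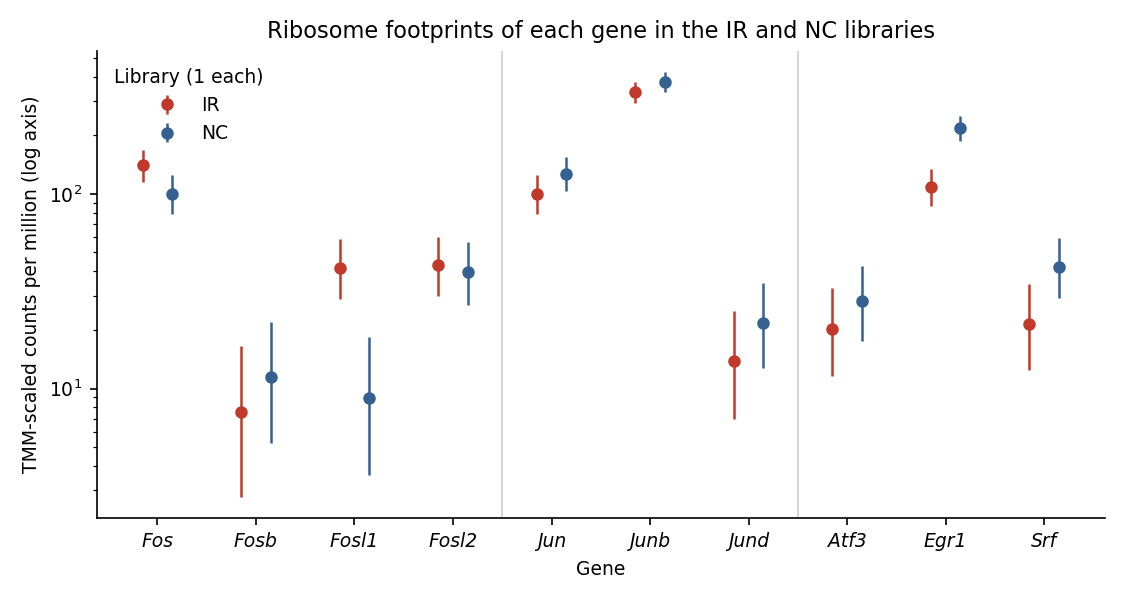
TMM-scaled CPM (log axis) of the 10 genes, with exact Poisson 95% intervals for counting error; IR (red) is left of NC (blue), 1 library each, and grey lines part the Fos family, the Jun family and the other genes. Fosl1 stands higher in IR and Egr1 higher in NC with intervals that do not meet; gene length is not taken into account, so heights compare the libraries and not the genes.

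In all, 2 of the 7 genes with enough counts were higher in IR beyond counting error (Fosl1 and Fos), where 23.5% of the 5989 genes were. Another 2 were lower (Egr1 and Srf), where 23.7% of genes were, so 4 of 7 lay beyond counting error against 47.2% of all genes. These shares are near the background and set the 7 genes apart in neither direction. Fosl1 and Srf meet the minimum mean only through the library where they were higher, so the counts that include them are not independent of their differences. Fosl1 alone was at least 2-fold higher (background 11.8%) and Egr1 alone at least 2-fold lower (background 11.9%). The median log2 ratio of the 7 genes was -0.18, with a range of -0.99 to 2.07, and that of the 5989 genes was -0.02 with an SD of 0.98. The split depends on scaling. With total counts the median of all genes moved by -0.32, and 787 genes (13.1%) lay above and 2341 (39.1%) below 1-fold beyond counting error, against 1407 above and 1418 below with TMM. Of the 7 genes, 1 was then higher (Fosl1) and 4 lower (Jun, Junb, Egr1 and Srf). Fosl1, Egr1 and Srf kept their direction beyond counting error under each of the scalings tried.

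**Figure D3:**
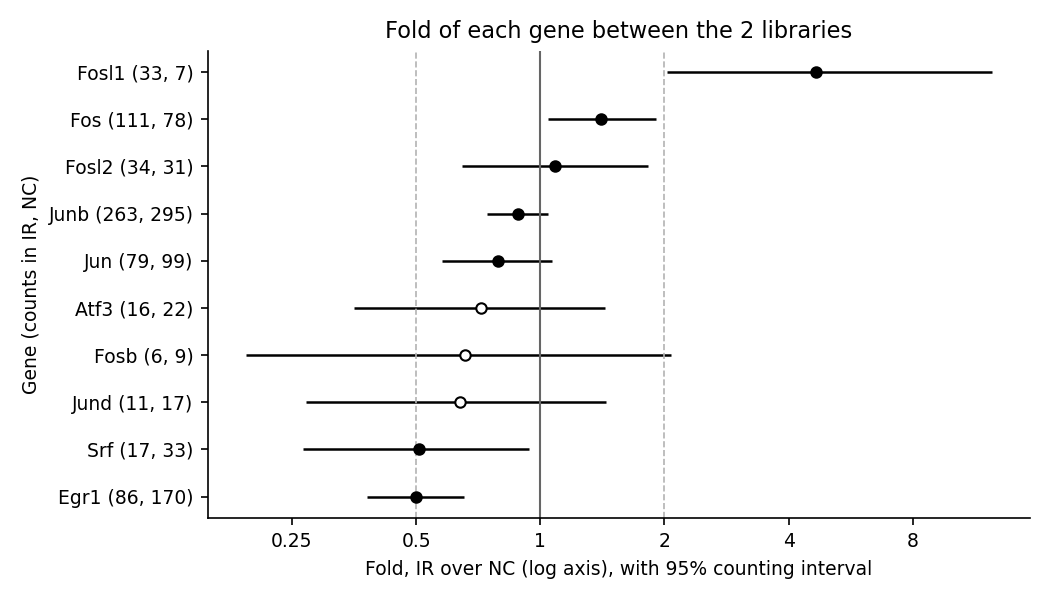
Fold of each gene, IR over NC (log axis), with its exact 95% counting interval; counts in IR and then NC stand beside each name, open points are genes with fewer than 20 counts on average, and dashed lines mark 2-fold. The intervals of Fosl1 and Fos lie above 1, those of Egr1 and Srf below 1, and the other 6 cross it.

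The balance between the families can be read within each library, without any scaling. The Fos family together gave 184 reads in IR against 125 in NC, and the Jun family 353 in IR against 411 in NC. Fos family counts made up 34.3% of both families in IR (exact 95% interval 30.3 to 38.4) and 23.3% in NC (19.8 to 27.1). The ratio of Fos family to Jun family counts was 0.521 in IR and 0.304 in NC, 1.71 times higher in IR (exact conditional interval 1.30 to 2.26). That interval covers counting error only, and no background of ratios between other gene groups was computed. Taken singly, 47.2% of the 5989 genes lay beyond counting error, and their log2 ratios had an SD of 0.98. With TMM scaling the Fos family sum had a fold of 1.45 (1.15 to 1.84), which was 1.15 (0.913 to 1.46) and within counting error with total counts, and the Jun family sum one of 0.849 (0.734 to 0.981). Both families together gave 537 counts in IR and 536 in NC, an IR/NC fold of 0.990 (0.876 to 1.12).

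The make-up of the Fos family differed, while that of the Jun family did not beyond counting error. Fosl1 held 17.9% of Fos family counts in IR (12.7 to 24.3) and 5.6% in NC (2.28 to 11.2). Fos held most of that family's counts in both, 60.3% in IR (52.9 to 67.4) and 62.4% in NC (53.3 to 70.9). Fosl2 held 18.5% in IR (13.1 to 24.9) and 24.8% in NC (17.5 to 33.3). Set against Fosl2, Fosl1 had 0.971 counts per Fosl2 count in IR and 0.226 in NC, 4.30 times higher in IR (1.55 to 13.0). Junb held 74.5% of Jun family counts in IR (69.6 to 79.0) and 71.8% in NC (67.2 to 76.1). Shares are of counts and not per length, so they compare the libraries for a gene and not the genes. Their intervals, and that of the ratio, cover counting error only.

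**Figure D4:**
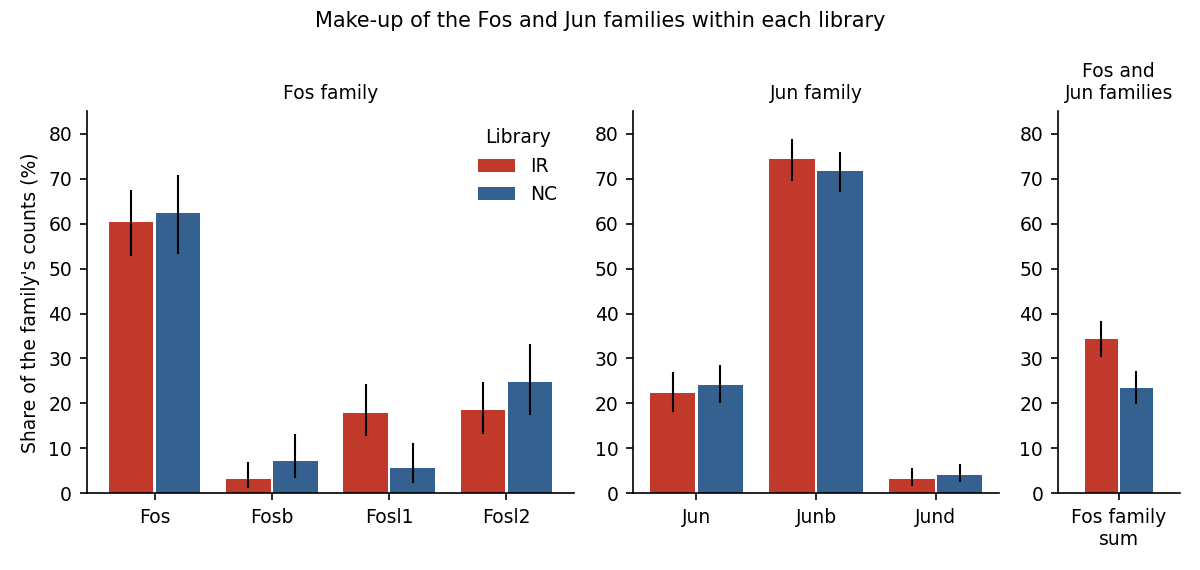
Share of each gene in its family's counts (left and middle) and of the Fos family in the counts of both families (right), as bars from 0 with exact binomial 95% intervals; IR (red) is left of NC (blue). Fosl1 takes 17.9% in IR and 5.6% in NC, and the intervals of each Jun gene overlap between the libraries.

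Fos and Egr1, both immediate-early genes known as targets of Srf, differed in opposite directions. There were 1.29 Fos counts per Egr1 count in IR and 0.459 in NC, 2.81 times higher in IR (1.87 to 4.23). Against Srf, Fos had 6.53 counts per count in IR and 2.36 in NC, 2.76 times higher in IR (1.38 to 5.66). Egr1 was also lower in IR relative to Junb, with 0.327 counts per Junb count in IR and 0.576 in NC, a ratio of 0.567 (0.411 to 0.780). The ratio of Srf to Egr1 was 0.198 in IR and 0.194 in NC, differing by 1.02 times (0.502 to 2.01). The pairs were chosen after the counts were seen. Their intervals cover counting error only, and no background of such ratios over other gene pairs was computed.

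Partners and cofactors of these genes went both ways, and were scored as above over their members that averaged 20 counts or more, where 23.5% of all genes were higher and 23.7% lower. Of 5 Maf, Jdp2 and related leucine zipper genes, 3 were lower beyond counting error and 1 higher. Jdp2, a repressor that pairs with Jun, gave 48 reads in IR against 99 in NC, an IR/NC fold of 0.479 (0.332 to 0.683). Among 11 ATF and CREB relatives 4 were lower and 0 higher, at a median log2 ratio of -0.20. With total counts the numbers higher and lower were the same for this list and the Maf list. Of all genes, 13.1% were then higher and 39.1% lower. Crebbp, the lowest of the counted ATF and CREB relatives, gave 27 reads in IR against 92 in NC. Atf2, a partner of Jun, had a fold of 1.43 (0.888 to 2.34) and did not differ beyond counting error. Of 3 Srf cofactors 2 were higher and 0 lower, and 1 was higher with total counts, where 13.1% of all genes were. Mkl1, the actin-regulated Srf coactivator MRTF-A, gave 115 reads in IR against 45 in NC, an IR/NC fold of 2.52 (1.77 to 3.65), and overlaps Sgsm3. Only Wt1 and Sp1 reached the minimum among the Egr1 relatives, and Wt1, the higher of them, is also the mesothelial marker given above. The Egr1 corepressors Nab1 and Nab2, too sparse to enter a count and named after their values were seen, gave 5 reads in IR against 22 in NC and 6 in IR against 16 in NC. Of the Egr genes, also too sparse, Egr2 gave 6 reads in IR against 4 in NC. Egr3 gave 9 in IR against 11 in NC, and Egr4 gave 4 in IR against 0 in NC.

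Of 22 other immediate-early genes, 9 lay above and 3 below 1-fold beyond counting error, at a median log2 ratio of 0.33 (-0.35 to 1.28), beside 23.5% above and 23.7% below over all genes. With total counts 8 were higher and 8 lower, at a median of 0.004. Of all genes, 13.1% were then higher and 39.1% lower, at a median of -0.34. Plk3, a stress-responsive kinase, gave 35 reads in IR against 10 in NC, while Csrnp1, a nuclear immediate-early protein, gave 12 reads in IR against 36 in NC. AP-1 target genes had 11 of 16 members higher and 2 lower, at a median of 0.54 (0.06 to 0.72), against the same shares of all genes. This count depends on scaling: with total counts 3 were higher and 3 lower, at a median of 0.20, where 13.1% of all genes were higher and 39.1% lower. Hbegf, an EGF receptor ligand, gave 13 reads in IR against 31 in NC. Of the 11 AP-1 targets averaging 100 counts or more, 9 were higher with TMM scaling, where 38.2% of all genes that deep were. Of 16 Srf targets 4 were higher and 5 lower (median -0.14), shares near the 23.5% and 23.7% of all genes, and 2 were higher and 10 lower with total counts. Of 8 Egr1 targets 4 were higher and 1 lower, and 1 higher and 1 lower with total counts. Among the Srf targets, Acta2, the smooth muscle actin of myofibroblasts, gave 820 reads in IR against 562 in NC, an IR/NC fold of 1.44 (1.29 to 1.61). Tpm1, a tropomyosin of actin filaments, gave 231 reads in IR against 509 in NC, an IR/NC fold of 0.448 (0.382 to 0.525). The target lists come from general knowledge and overlap in Tgfb1, so they do not show which factor acts on them here.

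MAP kinases had 4 of 15 members higher and 3 lower, near the 23.5% and 23.7% of all genes, at a median of -0.24. With total counts 3 were higher and 7 lower, where 13.1% of all genes were higher and 39.1% lower. The other results with total counts in this paragraph stand beside those same shares. Map2k7, which activates JNK, had a fold of 0.356 (0.195 to 0.620). Of 4 MAP kinase phosphatases 1 was lower (2 with total counts), Dusp6, which acts on ERK, with 25 reads in IR against 42 in NC. Of 6 factors that bind short-lived mRNAs, 4 did not differ beyond counting error, and with total counts 1 was higher and 3 were lower. Tia1 gave 1491 reads in IR against 183 in NC, an IR/NC fold of 8.05 (6.90 to 9.44). Of 3 genes of AP-1 protein turnover 1 was higher, the ubiquitin ligase scaffold Cul4a, and 0 were with total counts. Itch, a ligase for Jun and Junb, had a fold of 0.819 (0.624 to 1.07).

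**Figure D5:**
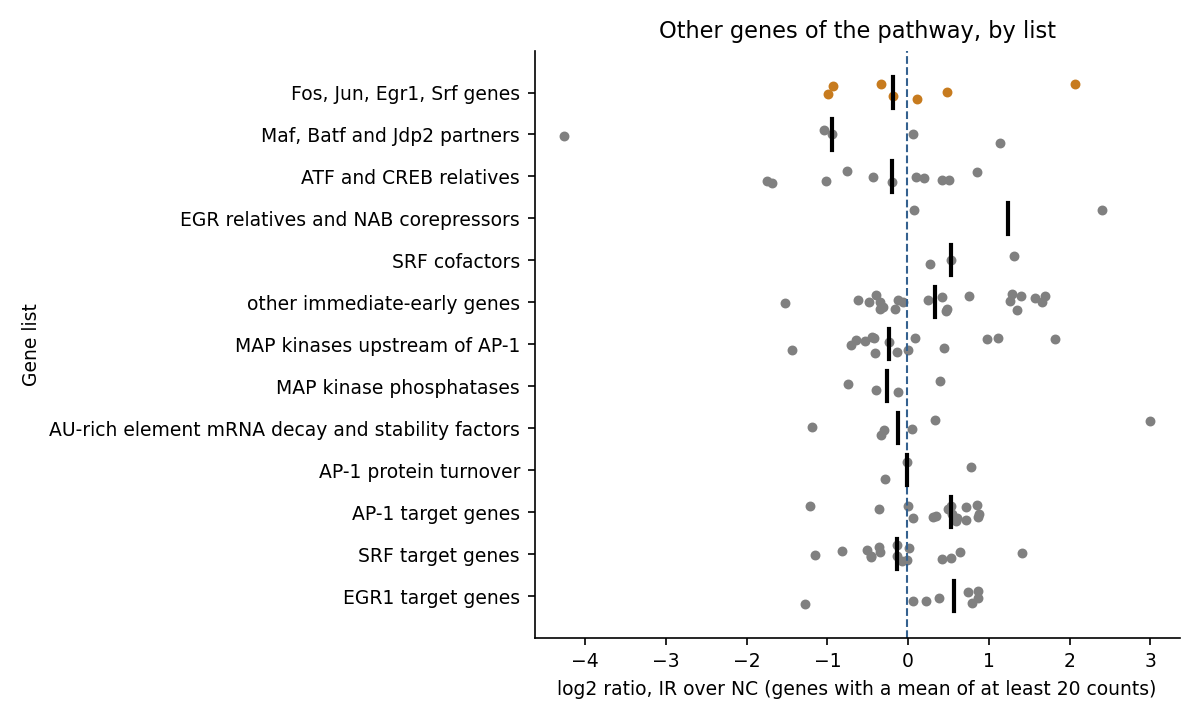
Log2 ratio of IR over NC for single genes (points) in each list, among genes averaging 20 counts or more; black bars are list medians, orange points the 7 counted AP-1, Egr1 and Srf genes, and the dashed line the median of all 5989 genes. Most lists hold genes on both sides, and with this TMM scaling the AP-1 targets lie mostly right of the line.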

How the data were processed

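Per the labels' protocols, cycloheximide-treated cells were lysed and nuclease-digested, and footprints were size-selected, depleted of rRNA, amplified and sequenced. In the submitters' processing notes are listed, with no role or order, the build mm10 and the tools HTSeq 0.9.1, TopHat2, Bowtie, cutadapt 1.9.3, DESeq2 and edgeR. The deposited table holds whole-number counts of mapped reads per gene, per the file headers. Its 2 columns of log CPM were not used. The strand setting and the treatment of multi-match reads have no statement in the sources used here. Groups follow the sample titles.

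Counts were scaled by TMM (edgeR 4.0.16, R 4.3.3) over the whole table. Folds carry no pseudocount and have exact (Clopper-Pearson) 95% intervals from the IR share of a gene's counts. Log2 ratios add a pseudocount of 1. Intervals treat each read as a separate footprint, and no molecular identifiers are mentioned. List medians have order-statistic intervals. The 10 genes, the 12 lists and the tests were chosen with earlier results of these data known. Named were all 10 genes and, in each list, every gene where at most 8 reached a mean of 20 counts, otherwise the 3 highest and 3 lowest ratios. The text prints some of these list genes, picked with their values known. Some list genes are not reported here. Levels per coding length were planned and not computed, since coding lengths were not used here. The procedure was tested on simulated data. Software was Python 3.11.15 with matplotlib 3.10.9, pandas 2.3.3, scipy 1.17.1 and numpy 2.4.6.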

Additional observations from a re-analysis of the deposited data

How the results depend on the processing

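No paired analysis was possible because each group holds 1 library, and for the same reason no library could be left out. Scaling by total counts moved the log2 ratio of Junb to -0.52, the Fos family fold to 1.15 (0.913 to 1.46) and the Jun family fold to 0.672. It gave 2 genes at least 2-fold lower (Egr1 and Srf), 1 higher and 4 lower beyond counting error, and list medians of 0.19 for Srf cofactors, -0.57 for MAP kinases, -0.35 for AP-1 protein turnover and -0.47 for Srf targets. Total counts without the 20 most counted genes likewise gave 2 genes at least 2-fold lower, 1 higher and 4 lower. With DESeq2 size factors, with upper-quartile scaling and with a pseudocount of 0.5 or 5, 0 genes were at least 2-fold lower, since Egr1 lies at that line. A minimum mean of 100 counts left Junb and Egr1, with 0 higher, 0 at least 2-fold higher and 1 lower. The median of the Egr1 relatives turned from 1.24 over 2 genes to -0.28 with a minimum of 10 and to -0.10 with none, as sparser genes entered. The median of the 7 genes had an interval as wide as their range, so its stability was not tested. Of the other recomputed list counts, 41 moved by more than 1.5 times and 121 did not. Pseudocounts do not enter the intervals.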

Other observations

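Leucine zipper genes outside the AP-1 lists were looked up after the values above were seen. Of 7 C/EBP, NRF, XBP1 and PAR family genes averaging 20 counts or more, 4 were lower in IR beyond counting error and 0 higher, beside 23.7% lower and 23.5% higher among all genes. Their median log2 ratio was -0.64 (-1.96 to 0.12). These genes were not scored again with total counts, where 39.1% of all genes were lower. Cebpg, a C/EBP protein that pairs with ATF4, gave 11 reads in IR against 45 in NC, an IR/NC fold of 0.241 (0.113 to 0.474). Tef, a circadian output factor, gave 33 reads in IR against 81 in NC, an IR/NC fold of 0.402 (0.260 to 0.610). Xbp1, which drives the unfolded protein response, had a fold of 0.637 (0.450 to 0.895), and Nfe2l1, a regulator of proteasome genes, one of 0.780 (0.629 to 0.966). Cebpb gave 31 reads in IR against 34 in NC, and Nfe2l2, the antioxidant factor NRF2, 53 in IR against 48 in NC. Of the genes too sparse to enter the count, Cebpa and Dbp were lower and Hlf higher beyond counting error. Cebpa gave 0 reads in IR against 13 in NC, Dbp 6 in IR against 19 in NC, and Hlf 8 in IR against 1 in NC.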
